A study of Rattus norvegicus with 18 samples.

Results

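The comparison described here sets the dorsal hippocampus of 6 rats withdrawn from an ethanol diet for 24 h against that of 6 rats kept on control diet. Its members were chosen by their treatment labels, and they make up 12 of the 18 RNA-Seq libraries of the series, 1 library per rat. All 12 were adult male wild-type Sprague-Dawley rats that took a Lieber-DeCarli liquid diet, which supplies food and fluid together, and the groups were pair fed. The controls had this diet without ethanol throughout. The withdrawal rats were brought to a diet with 9% ethanol (v/v) in steps, held on it for 15 days (15 or 16 days per the labels of the ethanol-fed groups), and then given control diet for the last 24 h, so that earlier ethanol intake and its removal come together in this group. The remaining 6 libraries are from rats still on ethanol diet and are used only to set values beside those of the members.

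Ethanol enhances GABA-A receptor signaling and inhibits NMDA-type glutamate receptors, and when intake stops after long exposure the brain passes through a period of heightened excitability, stress peptide signaling, and altered sleep and daily rhythm. The hippocampus, with its granule cells, pyramidal cells, and interneurons, is one of the regions in which this has been studied, together with the response of astrocytes, which raise intermediate filament and cytokine-response genes when they react. Ethanol is oxidized to acetaldehyde and then to acetate, and acetate feeds the acetyl-CoA used for lipid synthesis and histone acetylation.

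Between 31480318 and 39200777 fragments were counted on genes per control rat and between 30873228 and 42679748 per withdrawal rat. Levels are given as CPM, the counts of a gene scaled to library size by the TMM method. In all, 16315 genes above 0.5 CPM in at least 6 of the 12 libraries were tested with limma-voom. The model held 3 surrogate variables, which are unnamed sources of variation estimated from the same libraries, and q is the Benjamini-Hochberg adjusted p over all genes tested. The values farthest from 0 were 0.685 in withdrawal rat 5 for the first, 0.856 in rat 4 for the second, and -0.735 in rat 1 for the third. Control rats lay between -0.275 and 0.176. What the variables stand for was not tested. Fold changes come from this model, whereas the CPM values are not adjusted for the surrogate variables. No library was a repeat of another. All control rats carried index sequences of a first set, withdrawal rats 1 and 2 of another, and withdrawal rats 3 to 6 of yet another, so that index set and group cannot be told apart. In bulk tissue, fewer cells of a type and less RNA per cell cannot be told apart either.

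The libraries had the neurons of the hippocampus, with the dentate granule cell markers at 439 to 503 CPM in sum in control and 345 to 488 CPM in withdrawal rats and the CA1 pyramidal cell markers at 764 to 1038 and 552 to 1049 CPM. Several withdrawal rats stood apart in tissue markers. The 12 choroid plexus markers summed to 1843 to 3412 CPM in control rats, but to 207 CPM in withdrawal rat 4, 218 CPM in withdrawal rat 5, and 7889 CPM in withdrawal rat 6. The main one, Ttr (transthyretin), was at 21.5 and 20.4 CPM in withdrawal rats 4 and 5 and at 4687 CPM in withdrawal rat 6, against 961 to 2021 CPM in control rats. Withdrawal rat 5 also had the lowest CA1 sum, the lowest sum of reactive astrocyte markers (933 CPM), and the highest sum of mural cell and fibroblast markers (1018 CPM, against 448 to 567 CPM in control rats). Of the 11 choroid plexus markers tested, 1 was decreased by the model (Ttr, log2 change -0.71 ± 0.195 SE, limma-voom q = 0.0689, -1.21 without withdrawal rat 2, -0.39 without withdrawal rat 4 and -0.20 without withdrawal rat 6), although its mean level was 1484 ± 371 CPM in controls (SD, n = 6) and 1555 ± 1741 CPM in withdrawal, and the exact permutation test gave p = 0.3701. By limma-voom without surrogate variables the log2 change of Ttr was -1.75. The list median was -0.11 with and -1.10 without surrogate variables, 0.13 without withdrawal rat 6, and 0.48 without rats 4 and 5. Of 9 ependymal cilia markers 3 were increased, with exact permutation p of 0.314 for Drc12, 0.937 for Cfap126, and 0.504 for Rsph1 and withdrawal rat 6 highest in each, and the list median was 0.22 with and -0.02 without surrogate variables. The number of ependymal markers increased was 3, 2, and 0 without withdrawal rats 1, 5, and 6 in turn. It was 0 by DESeq2 without surrogate variables. Of 13 thalamus markers none was called. The part of these differences between rats in the results that follow was not tested beyond leaving rats out.

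**Figure D1:**
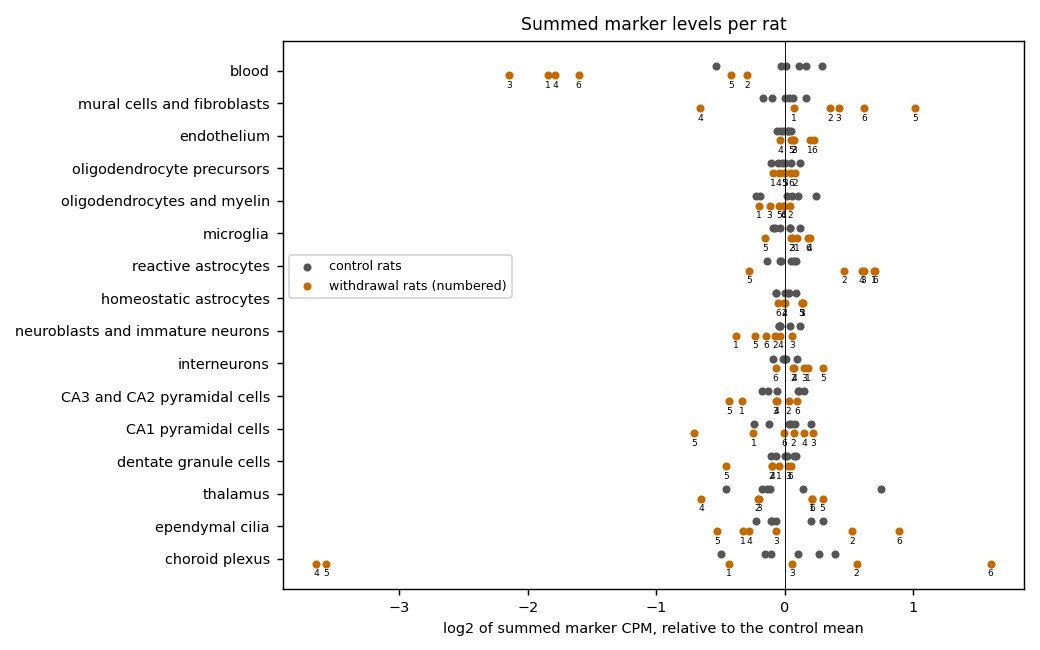
The plot of summed marker levels shows, for each of 16 marker lists, the log2 of the summed CPM of every control rat (gray) and every withdrawal rat (orange, numbered 1 to 6) relative to the control mean. Withdrawal rats 4 and 5 lie far below the other rats for choroid plexus and rat 6 far above, 5 of 6 withdrawal rats lie above all control rats for reactive astrocytes, and 4 of 6 lie below all control rats for blood.

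In this model 1259 of the 16315 genes (7.72%) differed between withdrawal and control at q < 0.1. Increases made up 714 of them (4.38% of the genes tested) and decreases 545 (3.34%). Most of the changes were small. The median log2 fold change was 0.28 among the increased and -0.29 among the decreased genes, and 93 increased and 97 decreased genes changed by more than 1.5-fold. All 6 withdrawal rats lay above all 6 control rats in 97 genes (0.595% of those tested), of which 80 were called increased, and below them in 85 genes (0.521%), of which 73 were called decreased. With upper-quartile scaling in place of TMM the split was 579 increased and 715 decreased, so that 44.7% rather than 56.7% of the calls were increases, while the median of all genes moved only from 0.0016 to -0.013.

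The number of calls rested on the surrogate variables and on single rats. Without surrogate variables limma-voom called 0 genes (2014 had an unadjusted p below 0.05), edgeR called 3, and DESeq2 called 492, of which 270 (1.65% of the genes tested) were increased and 222 (1.36%) decreased. Of the 1259 genes, 448 were also called by DESeq2 in the same direction, and 1256 kept their sign without surrogate variables. The genes were chosen for their difference in these same rats, so a kept sign is no independent support. Without withdrawal rat 6 the model called 1 gene, Usp33, which was not called with all rats (limma-voom q = 0.117). None of the 1259 genes was called in that fit. In it 1530 genes had an unadjusted p below 0.05, and all 1259 genes kept their sign. Without withdrawal rats 4 and 5 together it called 91 genes, 64 increased and 27 decreased. Withdrawal rat 1 was the highest of the 12 rats in 313 of the 714 increased genes and the lowest in 215 of the 545 decreased genes. Where leaving out 1 rat moved the log2 change of a called gene by more than 1.5 times, the value without that rat is given beside it, and an exact permutation p (two-sided, on unadjusted log2 CPM) is given where it was above 0.05. For some called genes a smaller p is given too. Such genes were chosen for their values in these same rats, so this p is a description and no support. Of the 138 genes named by rule, 49 fell by that much without withdrawal rat 6, 6 without rat 1, and 6 without rat 5, and none changed sign. Leaving out withdrawal rat 6 gave no call in any list described here other than Usp33, a deubiquitinase. The values of single rats are also given with the results, and a list of genes is described by the number of its members called and the median of its fold changes, beside 4.38% increased and 3.34% decreased among all genes.

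**Figure D2:**
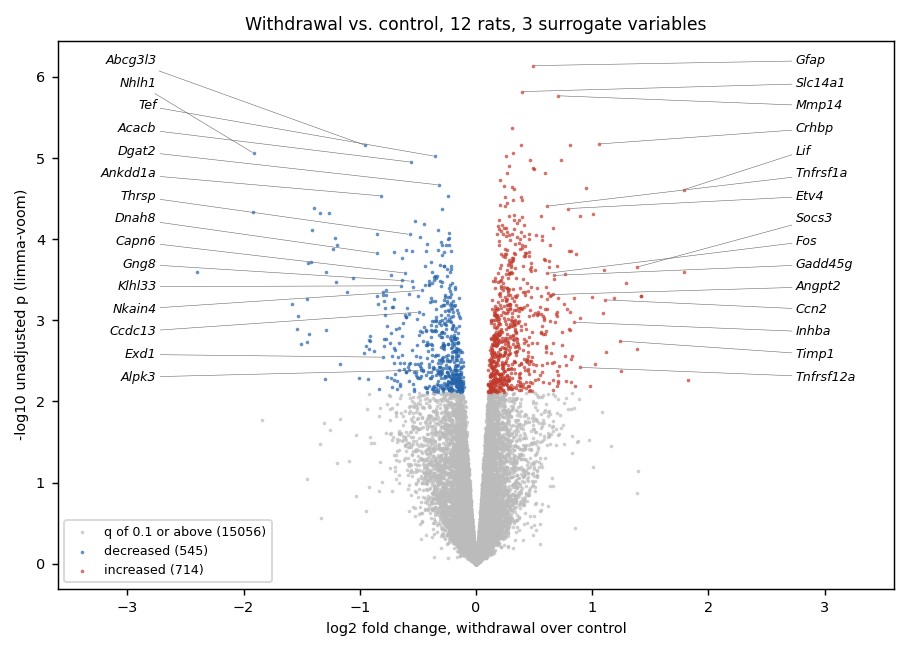
The volcano plot shows every gene tested, with the log2 fold change of withdrawal over control on the x axis and -log10 of the unadjusted limma-voom p on the y axis. Increased genes are red (714), decreased genes are blue (545), the rest are gray, and the labeled genes are the 12 largest increases and 12 largest decreases among genes whose groups did not overlap plus the 3 smallest p in each direction among genes with a group mean of at least 20 CPM.

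The 12 genes with the largest increase among those whose groups did not overlap were Lif, Socs3, Timp1, Ccn2, Crhbp, Tnfrsf12a, Inhba, Etv4, Gadd45g, Angpt2, Tnfrsf1a, and Fos. They were chosen for this separation, so their values are a description. Lif (chromosome 14, 84482652 to 84500574), an interleukin-6 family cytokine that signals through gp130, was at 0.1602 to 0.336 CPM (median 0.266) in control rats and 0.519 to 3.64 CPM (median 0.759) in withdrawal rats (log2 change 1.79 ± 0.274 SE, limma-voom q = 0.0148). Withdrawal rat 1 reached 3.64 CPM, and without it the log2 fold change was 1.42. Socs3, the feedback inhibitor of this pathway, was at 1.04 to 1.49 CPM (median 1.36) in control rats and 1.54 to 11.6 CPM (median 2.45) in withdrawal rats (log2 change 1.39 ± 0.2696 SE, limma-voom q = 0.0226, 0.74 without withdrawal rat 6). Its 2 highest values came from withdrawal rats 1 and 6, at 11.6 and 5.92 CPM, and the other 4 lay between 1.54 and 3.15 CPM. The receptor gene Tnfrsf12a, whose product binds the TNF family ligand TWEAK, rose from 2.204 ± 0.107 to 4.93 ± 3.29 CPM (SD, n = 6; log2 change 0.89 ± 0.252 SE, limma-voom q = 0.0734, 0.30 without withdrawal rat 6). Tnfrsf1a, a receptor of TNF itself, went from 10.9 ± 0.826 to 16.7 ± 5.29 CPM (log2 change 0.61 ± 0.0983 SE, limma-voom q = 0.0173, 0.38 without withdrawal rat 6).

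Among growth factor genes, Ccn2 (chromosome 1, 21851657 to 21854773), a matrix-associated protein induced through YAP and TEAD factors, was at 13.9 to 27.5 CPM (median 23.9) in control rats and 31.5 to 129 CPM (median 37.5) in withdrawal rats (log2 change 1.11 ± 0.241 SE, limma-voom q = 0.0313, 0.65 without withdrawal rat 5). Withdrawal rat 5 stood highest, at 129 CPM. Inhba (chromosome 17, 51894869 to 51919998), the subunit that forms activin A, was at 6.93 to 10.04 CPM in control rats and at 58.7 CPM in withdrawal rat 1, whereas the other withdrawal rats lay between 11.5 and 14.4 CPM. Its log2 fold change was 0.85 with and 0.45 without that rat (q = 0.0393 and 0.0339 by limma-voom) and 0.46 without withdrawal rat 6, and DESeq2 gave it no q. Angpt2, a vascular ligand of the Tie2 receptor, rose from 3.47 ± 0.372 to 5.74 ± 2.31 CPM (log2 change 0.64 ± 0.137 SE, limma-voom q = 0.0304, 0.33 without withdrawal rat 6). Timp1, which blocks metalloproteinases, had 1.82 ± 0.316 CPM in controls and 5.93 ± 6.39 CPM in withdrawal (log2 change 1.23 ± 0.312 SE, limma-voom q = 0.05003, 0.82 without withdrawal rat 1 and 0.54 without withdrawal rat 6). Withdrawal rat 1 was at 18.7 CPM, and the other withdrawal rats at 2.26 to 5.19 CPM.

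Etv4 and Crhbp differed from these genes in that their increase was spread over the rats. Etv4 (chromosome 10, 89685058 to 89700300), an ETS transcription factor induced by receptor tyrosine kinase signaling, was at 6.401 to 9.401 CPM (median 8.09) in control rats and 9.76 to 16.8 CPM (median 14.4) in withdrawal rats (log2 change 0.79 ± 0.128 SE, limma-voom q = 0.0173). In 5 of the withdrawal rats it lay between 14.1 and 16.8 CPM, and withdrawal rat 2 was just above the highest control rat. Without surrogate variables its q was 3.15e-06 by DESeq2, 0.105 by limma-voom, and 0.0978 by edgeR. Crhbp (chromosome 2, 25141471 to 25153334), which encodes a secreted protein that binds corticotropin-releasing hormone and limits its action, was at 5.498 to 6.76 CPM (median 5.899) in control rats and 8.91 to 17.2 CPM (median 13.9) in withdrawal rats (log2 change 1.06 ± 0.142 SE, limma-voom q = 0.0122). The lowest withdrawal rats, at 8.91 CPM in rat 2 and 8.91 CPM in rat 5, were still above the highest control rat. Without surrogate variables q was 7.01e-07 by DESeq2, 0.105 by limma-voom, and 0.0978 by edgeR. The log2 fold change was 1.04 without withdrawal rat 1 and 0.81 without withdrawal rat 6.

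**Figure D3:**
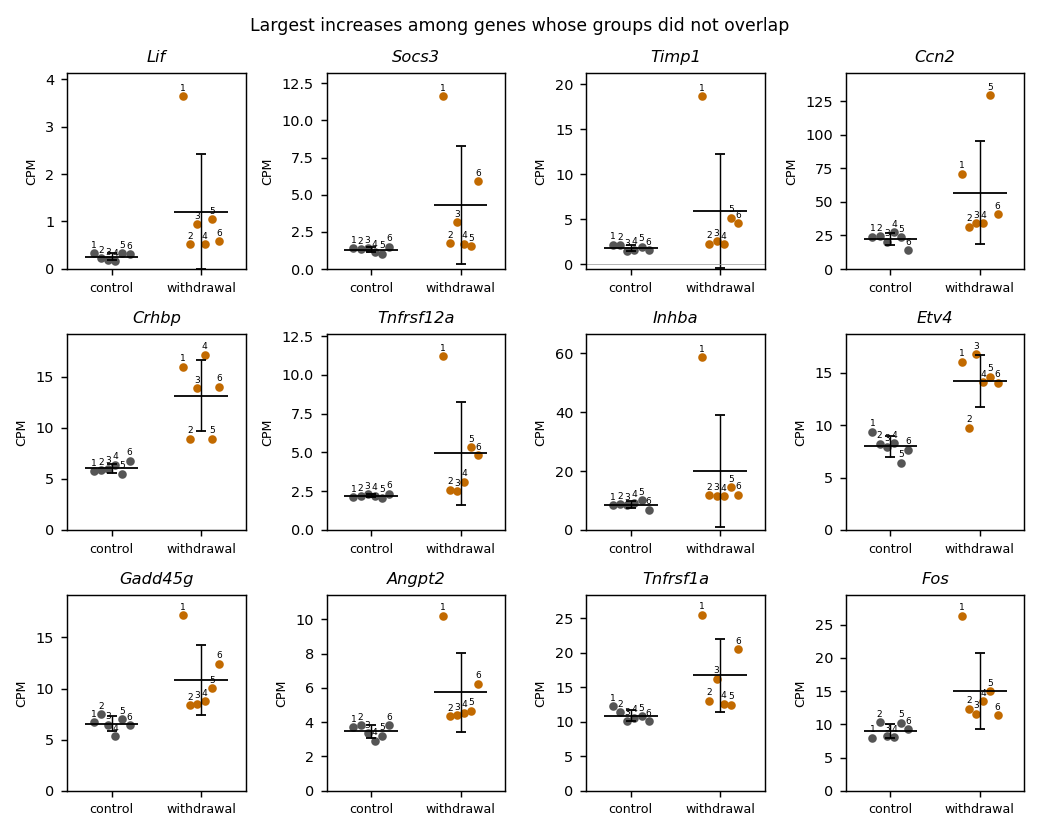
The plot of the 12 largest increases gives the CPM of each of the 6 control and 6 withdrawal rats (numbered points), with the mean as a line and the SD as a bar. In Lif, Timp1, Tnfrsf12a, Inhba, Angpt2, and Fos withdrawal rat 1 lies far above the other withdrawal rats, whereas in Crhbp and Etv4 the withdrawal rats lie more evenly above the control rats.

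Several genes of neuronal activity were increased. Of 26 late activity-regulated genes, which are transcribed some time after neurons fire, 12 were increased and none decreased, with a median log2 fold change of 0.34 against 0.0016 for all genes. DESeq2 without surrogate variables called 7 of the 26 increased. Of 20 immediate early genes, 4 were increased and 1 decreased (Nr4a2, log2 change -0.16, exact permutation p = 0.0801), with a median of 0.29. Fos, the classic early gene, rose from 9.03 ± 1.07 to 15.03 ± 5.72 CPM (SD, n = 6; log2 change 0.61 ± 0.121 SE, limma-voom q = 0.0236), with every withdrawal rat above every control rat and withdrawal rat 1 at 26.4 CPM. Bdnf (chromosome 3, 100768637 to 100819216), a neurotrophin, was at 26.5 to 35.3 CPM (median 34.4) in control rats and 29.8 to 98.6 CPM (median 44.9) in withdrawal rats (log2 change 0.62 ± 0.119 SE, limma-voom q = 0.0216). In 5 withdrawal rats it exceeded every control rat, and in rat 5 it was within the control range at 29.8 CPM (two-sided exact permutation p = 0.0195). Vgf, the precursor of neuropeptides released from dense core vesicles, rose from 27.97 ± 5.95 to 47.3 ± 16.9 CPM (log2 change 0.69 ± 0.159 SE, limma-voom q = 0.0366, 0.45 without withdrawal rat 6). Spry2, an inhibitor of receptor tyrosine kinase signaling, rose from 48.5 ± 2.53 to 67.3 ± 18.5 CPM (log2 change 0.42 ± 0.0879 SE, limma-voom q = 0.0293).

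Withdrawal rat 1 held the highest value of the withdrawal rats in 11 of the 12 increased late genes and in 3 of the 4 increased early genes. Ptgs2 (cyclooxygenase-2) was at 117 CPM in that rat against 18.3 to 23.3 CPM in control rats, while withdrawal rat 5 had 11.5 CPM. The model called it increased (log2 change 0.56 ± 0.157 SE, limma-voom q = 0.0708, 0.22 without withdrawal rat 1, 0.25 without withdrawal rat 6 and 0.32 without control rat 2), but the exact permutation test gave p = 0.316. Nptx2, a synaptic pentraxin, was at 239 CPM in withdrawal rat 1 and at 37.6 to 51.7 CPM in the others (log2 change 0.48 ± 0.145 SE, limma-voom q = 0.0898, 0.18 without withdrawal rat 1, 0.14 without withdrawal rat 6 and 0.26 without control rat 2, exact permutation p = 0.108). Arc, at 405 CPM in that rat and 60.2 to 100.5 CPM in control rats, did not pass (log2 change 0.51 ± 0.186 SE, limma-voom q = 0.1405). Neither did Npas4 (log2 change 0.03 ± 0.307 SE, limma-voom q = 0.965). Without withdrawal rat 1 the median was 0.19 for the late genes, of which 4 were increased, and 0.10 for the early genes, of which 2 were increased. Without withdrawal rat 6 the medians were 0.21 and 0.20, and no member passed. Leaving out rat 5 gave 5 increased late genes and 3 increased early genes, and leaving out rats 4 and 5 gave 0 of each.

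Peptide and peptide receptor genes were called in both directions. Of 33 neuropeptide and peptide receptor genes, 5 were increased and 3 decreased, with a median of 0.04. Leaving out withdrawal rat 1 gave 2 and 2 calls and a median of -0.02. The increased genes were Crhbp, Cort, Vip, Pnoc, and Crh, genes that interneurons of the hippocampus express. Cort (chromosome 5, 165942780 to 165944221), the precursor of cortistatin, was at 1.53 to 2.07 CPM (median 1.83) in control rats and 1.999 to 6.36 CPM (median 3.99) in withdrawal rats (log2 change 1.01 ± 0.166 SE, limma-voom q = 0.0175). Only withdrawal rat 5 was within the control range (exact permutation p = 0.00433). Crh itself rose from 1.098 ± 0.201 to 1.89 ± 0.716 CPM (SD, n = 6; log2 change 0.71 ± 0.212 SE, limma-voom q = 0.08899, 0.41 without withdrawal rat 6). Pnoc, the nociceptin precursor, went from 5.87 ± 0.356 to 8.16 ± 1.25 CPM (log2 change 0.42 ± 0.104 SE, limma-voom q = 0.0485, 0.27 without withdrawal rat 6). Vip, a peptide of interneurons that act on other interneurons, went from 17.01 ± 1.13 to 22.7 ± 5.65 CPM (log2 change 0.28 ± 0.0591 SE, limma-voom q = 0.02802). The decreased genes were Nts, the neurotensin precursor (log2 change -0.43, -0.23 without withdrawal rat 6, exact permutation p = 0.0563), Npy5r, a neuropeptide Y receptor (log2 change -0.29), and Adcyap1r1, the PACAP receptor (log2 change -0.23, -0.15 without withdrawal rat 6, exact permutation p = 0.0541).

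The interneuron markers held few calls. Of 17 tested, 3 were increased (Slc32a1, Gad2, and Vip, which is also in the peptide list) with a median of 0.05. The number increased without withdrawal rats 1, 5, and 6 in turn was 0, 1, and 0, and it was 0 by DESeq2 without surrogate variables. The summed level was 1429 to 1628 CPM in controls and 1450 to 1874 CPM in withdrawal rats. Gad2, which makes GABA, was highest in withdrawal rat 5, at 162 CPM against 70.00 to 113 CPM in control rats (exact permutation p = 0.113). Slc32a1, the vesicular GABA transporter, was likewise highest there at 112 CPM (log2 change 0.20, 0.13 without withdrawal rat 5, exact permutation p = 0.121). That rat was also the one with the lowest CA1 marker sum, and the part of this in the peptide results was not tested. In the neuropeptide list 3 genes were increased and 1 was decreased without it.

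Reactive astrocyte genes were the marker list with the largest positive median. Of 19 tested, 9 were increased and none decreased, with a median log2 fold change of 0.59. Gfap (chromosome 10, 90990762 to 90999435), the intermediate filament of astrocytes, had the smallest p of all genes (log2 change 0.49 ± 0.0536 SE, limma-voom q = 0.00927), with 849 to 992 CPM (median 945) in control rats and 642 to 1533 CPM (median 1466) in withdrawal rats. In 5 withdrawal rats the level was 1325 to 1533 CPM, higher than in any control rat. Rat 5, at 642 CPM, was lower than all of them, and the exact permutation test gave p = 0.0541. Without surrogate variables the q of Gfap was 0.349 by limma-voom and 0.1004 by DESeq2. Emp1, a membrane protein of reacting astrocytes, rose from 6.38 ± 1.16 to 13.2 ± 6.37 CPM (SD, n = 6; log2 change 0.95 ± 0.144 SE, limma-voom q = 0.0148). S1pr3, a receptor of sphingosine 1-phosphate, rose from 8.898 ± 0.677 to 14.9 ± 5.198 CPM (log2 change 0.73 ± 0.102 SE, limma-voom q = 0.0122, 0.47 without withdrawal rat 6). For both the exact permutation p was 0.00649. Osmr, the oncostatin M receptor, was at 2.35 to 3.45 CPM (median 2.92) in control rats and 3.06 to 13.6 CPM (median 3.99) in withdrawal rats (log2 change 0.82 ± 0.223 SE, limma-voom q = 0.0652, 0.30 without withdrawal rat 6), with withdrawal rats 2 and 4 within the control range. Hspb1, a small heat shock protein, was highest in withdrawal rats 1 and 6 at 24.2 and 24.3 CPM against 4.69 to 8.08 CPM in control rats (log2 change 1.12 ± 0.296 SE, limma-voom q = 0.0583, 0.49 without withdrawal rat 6).

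The median of this list was 0.45 without withdrawal rat 1, 0.51 without rat 5, 0.29 without rat 6, and 0.32 without rats 4 and 5, in which fit 4 members were increased. Its increased members numbered 5, 4, and 0 without rats 1, 5, and 6 in turn, and rat 1 was the highest withdrawal rat in 6 of the 9. The homeostatic astrocyte markers had a median of 0.03 and 1 of 15 was called, decreased, against 2 decreased without withdrawal rat 1 and 3 without rat 5. The one called with all rats was Aldh1l1, a folate enzyme of astrocytes, which fell from 29.3 ± 2.299 to 23.03 ± 5.05 CPM (log2 change -0.38 ± 0.0885 SE, limma-voom q = 0.0386, -0.19 without withdrawal rat 6). Slc14a1 (chromosome 18, 74461064 to 74504475), a urea transporter that astrocytes carry, was at 51.8 to 63.3 CPM (median 58.3) in control rats and 61.04 to 112 CPM (median 72.8) in withdrawal rats (log2 change 0.39 ± 0.04599 SE, limma-voom q = 0.00927; exact permutation p = 0.00433). Microglial markers had 2 of 15 increased, C1qb (log2 change 0.37 ± 0.0617 SE, limma-voom q = 0.0183) and C1qc (log2 change 0.37 ± 0.106 SE, limma-voom q = 0.0807, 0.16 without withdrawal rat 6), which encode chains of complement C1q, with 1 increased without withdrawal rat 1 and 1 without rat 5. Aif1, a general microglial marker, was at 12.1 ± 0.8100 and 13.2 ± 1.43 CPM in controls and withdrawal rats (log2 change 0.10 ± 0.0727 SE, limma-voom q = 0.4400).

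Extracellular matrix genes had the largest share of increased members of all lists. Of 31 matrix and basement membrane genes, 19 were increased and none decreased, and 27 had a positive log2 fold change, with a median of 0.25. DESeq2 without surrogate variables called 3 of the 31 increased. Col4a1 (chromosome 16, 83522162 to 83632153), a chain of the type IV collagen of basement membranes, had the tightest control group, at 71.3 to 73.6 CPM, and was at 77.5 to 101 CPM in withdrawal rats (log2 change 0.25 ± 0.0404 SE, limma-voom q = 0.0173), with all 6 above all controls. Mmp14 (chromosome 15, 33074441 to 33083666), a membrane-bound metalloproteinase, was at 13.6 to 18.5 CPM (median 16.1) in control rats and 9.83 to 37.6 CPM (median 24.05) in withdrawal rats (log2 change 0.71 ± 0.0832 SE, limma-voom q = 0.00927). Here 5 withdrawal rats lay above every control rat while rat 4, at 9.83 CPM, was lower than any control rat (exact permutation p = 0.0866). Lox, which crosslinks collagen, reached 43.2 CPM in withdrawal rat 5 and 18.8 CPM in rat 1 against 4.26 to 8.196 CPM in control rats (log2 change 0.90 ± 0.149 SE, limma-voom q = 0.0175, exact permutation p = 0.1299). Rats 2 and 3 were within the control range and rat 4, at 3.58 CPM, was lower than any control rat. Fn1 (fibronectin) reached 247 CPM in rat 5 against 49.3 to 60.9 CPM (log2 change 0.67 ± 0.142 SE, limma-voom q = 0.0304, 0.38 without withdrawal rat 5). Col3a1, a fibrillar collagen of vessel walls and meninges, was at 22.4 to 151 CPM in withdrawal and 27.5 to 35.5 CPM in control rats (log2 change 0.86 ± 0.1602 SE, limma-voom q = 0.0198, 0.52 without withdrawal rat 5).

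Withdrawal rat 5 held the highest level in 10 of the 19 increased matrix genes, and its mural cell and fibroblast marker sum was also the highest. Without it the median of the matrix list was 0.22 and 6 members were increased. Without withdrawal rat 1 these values were 0.22 and 15, and without withdrawal rat 6 they were 0.22 and 0. The mural cell and fibroblast markers themselves had 4 of 16 increased with a median of 0.24, and rat 5 was the highest withdrawal rat in 3 of the 4. DESeq2 without surrogate variables called 0 of the 16. Leaving out rat 5 gave a median of 0.11 and 1 increased marker. One of them, Igf2, was called increased (log2 change 0.32 ± 0.07895 SE, limma-voom q = 0.0466, 0.20 without withdrawal rat 2 and 0.48 without withdrawal rat 4). Its control rats at 121 to 198 CPM lay inside the withdrawal range of 46.3 to 408 CPM (exact permutation p = 0.918), and its sign turned without surrogate variables.

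Genes of cell attachment and of vessels also held more increases than decreases. Of 26 integrin and focal adhesion genes, 10 were increased and 2 decreased (Ilk and Itgb4, log2 change -0.42, -0.18 without withdrawal rat 6), with a median of 0.20 and of 0.12 without withdrawal rat 6. Without rats 1, 5, and 6 in turn 8, 5, and 0 were increased and 1, 1, and 0 decreased. Fermt2 (chromosome 15, 19807806 to 19876557), kindlin-2, which activates integrins, was at 133 to 153 CPM (median 144) in control rats and 159 to 187 CPM (median 174) in withdrawal rats (log2 change 0.27 ± 0.0388 SE, limma-voom q = 0.0125), with no overlap of the groups. Itgb1, the beta 1 chain that most integrins share, rose from 105 ± 6.55 to 123 ± 12.5 CPM (SD, n = 6; log2 change 0.22 ± 0.0403 SE, limma-voom q = 0.0198). Ilk, the integrin-linked kinase, moved the other way, with 68.9 to 82.7 CPM in withdrawal rats all below the 83.3 to 87.1 CPM of control rats (log2 change -0.13 ± 0.0389 SE, limma-voom q = 0.0922, -0.06 without withdrawal rat 6). Of 17 endothelial markers, 8 were increased and none decreased, with a median of 0.21, and DESeq2 without surrogate variables called 3 increased. Withdrawal rat 1 was the highest withdrawal rat in 6 of the 8. The number increased was 4, 3, and 0 without rats 1, 5, and 6 in turn and 0 without rats 4 and 5. Pecam1, an adhesion molecule of endothelial junctions, rose from 12.01 ± 1.01 to 15.01 ± 1.88 CPM (log2 change 0.34 ± 0.0718 SE, limma-voom q = 0.0304). Egfl7, an angiogenic secreted protein, went from 11.8 ± 1.57 to 15.8 ± 2.06 CPM (log2 change 0.41 ± 0.0819 SE, limma-voom q = 0.0253). Kdr, a VEGF receptor, went from 14.2 ± 3.63 to 21.1 ± 6.197 CPM (log2 change 0.59 ± 0.133 SE, limma-voom q = 0.0343). Cldn5, the tight junction claudin of brain endothelium, did not pass (log2 change 0.11 ± 0.0408 SE, limma-voom q = 0.161). The summed endothelial level was 1031 to 1111 CPM in controls and 1049 to 1260 CPM in withdrawal rats, and the list median was 0.10 without withdrawal rat 6. YAP-TEAD factors and targets had 3 of 21 increased, Ccn2, Ajuba (log2 change 0.45, exact permutation p = 0.0736), and Yap1 (log2 change 0.21, exact permutation p = 0.665). BMP, TGF-beta, and SMAD genes had 3 of 29 increased and 1 decreased. Without withdrawal rats 1, 5, and 6 in turn the number increased was 2, 2, and 0 for YAP-TEAD and 2, 2, and 0 for BMP, TGF-beta, and SMAD genes, with 1, 0, and 0 decreased in the latter.

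Inflammatory lists held increases of modest number. Of 30 TNF and NF-kB genes, 8 were increased and none decreased (median 0.13), and of 31 gp130, JAK, and STAT genes 6 were increased and 1 decreased (median 0.04). Withdrawal rat 1 was the highest withdrawal rat in 7 of the 8 and in 4 of the 6 increased genes. Without rats 1, 5, and 6 in turn the number increased was 4, 4, and 0 in the first list and 4, 4, and 0 in the second, with 2, 1, and 0 decreased, and the median of the second was 0.00 without rat 6. Relb, an NF-kB subunit, rose from 2.97 ± 0.336 to 4.36 ± 0.812 CPM (SD, n = 6; log2 change 0.47 ± 0.0899 SE, limma-voom q = 0.02201). Nfkbia, which holds NF-kB in the cytoplasm, rose from 21.2 ± 3.85 to 28.6 ± 5.39 CPM (log2 change 0.46 ± 0.139 SE, limma-voom q = 0.08802, 0.26 without withdrawal rat 6). Stat3 was at 55.7 to 64.2 CPM (median 60.3) in control rats and 63.6 to 103 CPM (median 67.8) in withdrawal rats (log2 change 0.30 ± 0.0586 SE, limma-voom q = 0.0236, 0.12 without withdrawal rat 6, DESeq2 q = 0.154), and withdrawal rat 1 was highest at 103 CPM. The shared receptor Il6st (gp130) did not pass (log2 change 0.07 ± 0.0312 SE, limma-voom q = 0.203), and the receptor Il6r was decreased (log2 change -0.33 ± 0.0869 SE, limma-voom q = 0.0614, exact permutation p = 0.0779). Of 26 interferon-induced genes, 7 were increased and none decreased, with a median of 0.27 and of 0.10 without withdrawal rat 6. In both Ifit genes called, the highest rats were 4 and 5, whereas rat 1 was the highest withdrawal rat in 3 of the 7 increased genes. The number increased without rats 1, 5, and 6 in turn was 3, 2, and 0. Ifit3, an antiviral effector, was at 8.73 and 7.89 CPM in withdrawal rats 4 and 5 and at 2.71 to 4.28 CPM in the rest, against 1.57 to 3.22 CPM in control rats (log2 change 0.90 ± 0.207 SE, limma-voom q = 0.0372, 0.54 without withdrawal rat 6). Its relative Ifit2 was likewise highest in those rats, at 16.9 and 18.2 CPM (log2 change 0.47 ± 0.102 SE, limma-voom q = 0.0304, 0.31 without withdrawal rat 6).

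Complement genes moved in opposite directions, with 4 of 16 increased and 1 decreased. Without withdrawal rats 1, 5, and 6 in turn 1, 1, and 0 were increased and 1, 2, and 0 decreased. C3 (chromosome 9, 9721137 to 9747084), the central component, fell from 35.4 ± 7.45 to 20.4 ± 5.27 CPM (SD, n = 6; log2 change -0.77 ± 0.166 SE, limma-voom q = 0.0304). Without surrogate variables its q was 0.002902 by DESeq2, 0.142 by limma-voom, and 0.144 by edgeR. The C1 inhibitor gene Serping1 rose from 10.6 ± 1.04 to 13.2 ± 2.17 CPM (log2 change 0.34 ± 0.0815 SE, limma-voom q = 0.0432). In C3 the ranges were 25.99 to 44.95 CPM in controls and 14.8 to 27.4 CPM in withdrawal rats, and they overlapped through control rat 3, which lay below withdrawal rats 2 and 4. Of 11 chemokine and leukocyte adhesion genes tested, Icam1, an adhesion molecule, was increased (log2 change 0.53 ± 0.1203 SE, limma-voom q = 0.0356, 0.33 without withdrawal rat 6). Selplg, a selectin ligand, was decreased from 20.6 ± 4.03 to 13.2 ± 4.83 CPM (log2 change -0.58 ± 0.1599 SE, limma-voom q = 0.0692). In the fit without rat 1, 1 of the 11 was increased and 0 decreased, and without rat 5 none was called.

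Genes of RNA processing and protein turnover had small positive fold changes in most members. Of 56 core spliceosome genes, 10 were increased and none decreased, and 51 had a positive log2 fold change (median 0.08). Lsm4 (chromosome 16, 20506399 to 20511818), a subunit of the ring that binds U6 RNA, was at 26.5 to 27.98 CPM in controls and 29.5 to 31.9 CPM in withdrawal rats (log2 change 0.19 ± 0.0393 SE, limma-voom q = 0.0262), a small difference with no overlap. Of 45 SR and hnRNP splicing regulators, 7 were increased and none decreased, among them Ptbp1, a repressor of neuronal exons, which rose from 44.3 ± 3.47 to 52.99 ± 6.46 CPM (SD, n = 6; log2 change 0.28 ± 0.0492 SE, limma-voom q = 0.0187). All 47 cytosolic ribosomal protein genes had a positive log2 fold change, with 5 increased and a median of 0.12. So did all 31 proteasome genes, with 5 increased and a median of 0.09. Among all genes 50.6% had a positive log2 fold change. Without withdrawal rats 4 and 5 the medians were 0.04 for the spliceosome, 0.04 for ribosomal proteins, and 0.04 for the proteasome, and no member passed. Leaving out rat 6 alone gave 0.04, 0.07, and 0.05, likewise with no member passing. Without rats 1, 5, and 6 in turn the number increased was 7, 2, and 0 for the spliceosome, 3, 4, and 0 for the splicing regulators, 1, 0, and 0 for ribosomal proteins, and 0, 0, and 0 for the proteasome. With upper-quartile scaling the medians of the spliceosome, ribosomal proteins, and the proteasome were 0.06, 0.10, and 0.07. Ribosomal protein genes have many near-identical processed copies, so their counts are uncertain.

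Decreased genes, some of which fell in the lists above, are described next. Among those whose groups did not overlap, Nhlh1 (chromosome 13, 90437956 to 90443157), a basic helix-loop-helix transcription factor of newly formed neurons, had the largest decrease. It was at 7.96 to 11.9 CPM (median 8.93) in control rats and 0.483 to 5.66 CPM (median 2.25) in withdrawal rats (log2 change -1.91 ± 0.264 SE, limma-voom q = 0.0122). Withdrawal rat 1 was lowest at 0.483 CPM and withdrawal rat 2 highest at 5.66 CPM. Without surrogate variables q was 0.000375 by DESeq2, 0.105 by limma-voom, and 0.121 by edgeR. Nhlh1 was the only one of 14 neuroblast markers called, and the median of the list was -0.14. Dcx (doublecortin) was at 49.1 ± 2.47 CPM in controls and 46.7 ± 6.95 CPM in withdrawal rats (log2 change -0.15 ± 0.0503 SE, limma-voom q = 0.118). Gpr17 (chromosome 18, 24733306 to 24739194), a receptor of oligodendrocyte precursors on the way to maturity, was at 34.7 to 42.00 CPM in controls and 20.5 to 34.6 CPM in withdrawal rats (log2 change -0.45 ± 0.107 SE, limma-voom q = 0.0417, -0.29 without withdrawal rat 6), and again the groups did not overlap. The gene was the 1 call of its marker list, which had 1 decreased without withdrawal rat 1 and 0 without rat 5. The remaining 17 of 18 oligodendrocyte and myelin markers were not called, with Mbp at 0.03 on the log2 scale (q = 0.866 by limma-voom). Olig2, a transcription factor of the oligodendrocyte lineage, was higher in every withdrawal rat (32.7 to 40.3 CPM in control, 41.4 to 50.6 CPM in withdrawal, log2 change 0.29 ± 0.05503 SE, limma-voom q = 0.02201).

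Further genes with clear separation had varied functions. Capn6 (chromosome X, 115049113 to 115073824), a calpain without protease activity that stabilizes microtubules, fell from 3.89 ± 0.3503 to 2.51 ± 0.378 CPM (SD, n = 6; log2 change -0.61 ± 0.121 SE, limma-voom q = 0.0236, -0.40 without withdrawal rat 6). Dnah8, an axonemal dynein heavy chain, fell from 3.22 ± 0.502 to 1.71 ± 0.476 CPM (log2 change -0.85 ± 0.158 SE, limma-voom q = 0.0198). Gng8, a gamma subunit of G proteins, went from 15.3 ± 2.14 to 10.5 ± 1.63 CPM (log2 change -0.55 ± 0.113 SE, limma-voom q = 0.0259). Nkain4, a partner of the sodium pump, was at 20.1 to 24.4 CPM (median 22.97) in control rats and 11.8 to 19.7 CPM (median 17.01) in withdrawal rats (log2 change -0.47 ± 0.0985 SE, limma-voom q = 0.0289, -0.26 without withdrawal rat 6), with rat 6 lowest. Klhl33, of the kelch-like family, fell from 1.56 ± 0.122 to 0.983 ± 0.148 CPM (log2 change -0.64 ± 0.133 SE, limma-voom q = 0.0276). For Abcg3l3 (-0.95 on the log2 scale, q = 0.0122 by limma-voom), a transporter-like gene, reads may be shared with close copies in the genome, so its value is uncertain. The other 3 of the 12 largest were Exd1 (log2 change -0.80 ± 0.215 SE, limma-voom q = 0.0627, -0.49 without withdrawal rat 6), Ccdc13 (log2 change -0.49 ± 0.112 SE, limma-voom q = 0.0356), and Alpk3 (log2 change -0.47 ± 0.135 SE, limma-voom q = 0.0761, -0.30 without withdrawal rat 6). Ankdd1a, an ankyrin repeat protein, had with Tef and Dgat2 the smallest p among decreased genes with a group mean of at least 20 CPM, at 17.4 to 25.1 CPM (median 19.2) in control rats and 7.37 to 17.6 CPM (median 11.1) in withdrawal rats (log2 change -0.81 ± 0.127 SE, limma-voom q = 0.0158, -0.54 without withdrawal rat 6; exact permutation p = 0.00433).

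**Figure D4:**
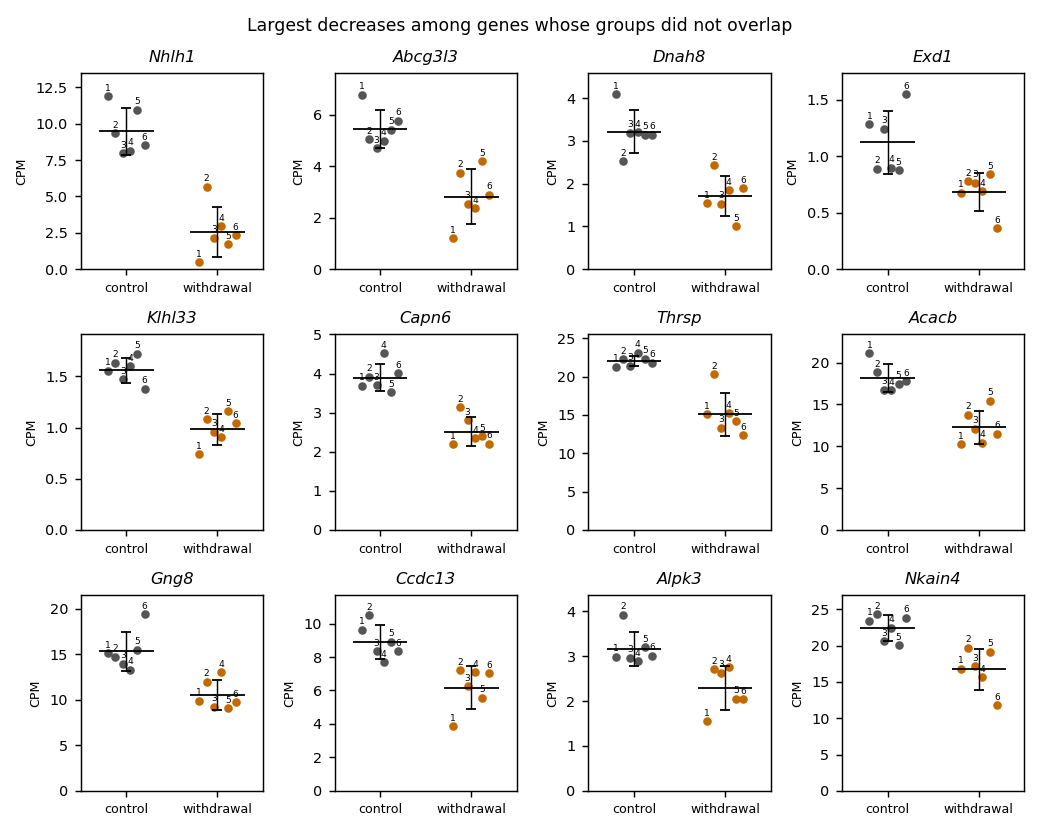
The plot of the 12 largest decreases gives the CPM of each of the 6 control and 6 withdrawal rats (numbered points), with the mean as a line and the SD as a bar. Withdrawal rat 1 is the lowest withdrawal point in 7 panels and rat 6 in 3, and rat 2 is the withdrawal rat nearest to the controls in 6, among them Nhlh1 and Thrsp.

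Among the decreased genes named for their size or p, 3 have roles in lipid metabolism, a grouping made after their values were seen. Elovl2, which elongates polyunsaturated fatty acids, went the other way, from 53.6 ± 1.98 to 66.9 ± 5.68 CPM (SD, n = 6; log2 change 0.32 ± 0.0435 SE, limma-voom q = 0.0122). Acacb (chromosome 12, 48127149 to 48238969), acetyl-CoA carboxylase 2, makes the malonyl-CoA that restrains fatty acid oxidation in mitochondria. It was at 16.7 to 21.1 CPM (median 17.6) in control rats and 10.2 to 15.4 CPM (median 11.8) in withdrawal rats (log2 change -0.56 ± 0.0787 SE, limma-voom q = 0.0122), with no overlap and q = 0.000372 by DESeq2. Its q without surrogate variables was 0.105 by limma-voom and 0.116 by edgeR. Thrsp (chromosome 1, 162381251 to 162385575), a nuclear protein that promotes lipogenic gene expression, was at 21.3 to 23.1 CPM in controls and 12.3 to 20.3 CPM in withdrawal rats (log2 change -0.57 ± 0.0999 SE, limma-voom q = 0.0187), with rat 2 closest to the controls. Dgat2, which performs the last step of triglyceride synthesis, fell from 80.8 ± 11.4 to 63.4 ± 14.96 CPM (SD, n = 6; log2 change -0.32 ± 0.04798 SE, limma-voom q = 0.0148), but withdrawal rats 2, 4, and 6 lay within the control range (exact permutation p = 0.0519). Of 23 cholesterol synthesis genes, 5 were decreased and none increased, and 20 had a negative log2 fold change, with a median of -0.13. Hmgcs1, HMG-CoA synthase, fell from 351 ± 23.6 to 288 ± 39.00 CPM (log2 change -0.31 ± 0.07900 SE, limma-voom q = 0.05397, -0.15 without withdrawal rat 6). The enzymes of the last steps included Sc5d, which went from 195 ± 9.04 to 172 ± 11.01 CPM (log2 change -0.18 ± 0.0458 SE, limma-voom q = 0.0485). Dhcr7, also of the last steps, went from 24.4 ± 1.36 to 20.6 ± 1.903 CPM (log2 change -0.25 ± 0.0682 SE, limma-voom q = 0.0648, -0.15 without withdrawal rat 6). The remaining decreased members were Nsdhl (log2 change -0.17) and Cyp51 (log2 change -0.24, -0.09 without withdrawal rat 6). DESeq2 without surrogate variables called 4 members decreased, whereas no member was called decreased without withdrawal rat 1 (median -0.10), rat 5 (-0.12), or rat 6 (-0.09), and 1 member was called increased without rat 5.

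The enzymes that handle ethanol and its products showed 2 decreases among 13 tested. Acss2 (chromosome 3, 151032925 to 151075856), which turns acetate into acetyl-CoA, was at 75.2 to 83.6 CPM in controls and 63.5 to 74.1 CPM in withdrawal rats (log2 change -0.20 ± 0.0436 SE, limma-voom q = 0.0318), with every withdrawal rat below every control rat. Aldh1b1, a mitochondrial acetaldehyde dehydrogenase, fell from 12.9 ± 0.949 to 10.2 ± 1.07 CPM (SD, n = 6; log2 change -0.30 ± 0.0722 SE, limma-voom q = 0.0404; exact permutation p = 0.00433). The remaining 11 members were not called, and the median of the list was -0.06. Acss2 had q = 0.00672 and Aldh1b1 q = 0.0127 by DESeq2 without surrogate variables, whereas limma-voom and edgeR without them called neither gene.

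Clock genes were called in both directions, and the output factors were among those called decreased. Of 21 circadian clock genes, 4 were decreased and 3 increased, with a median of 0.04 and of -0.05 without withdrawal rat 6. Without rats 1, 5, and 6 in turn 3, 4, and 0 were decreased and 1, 1, and 0 increased. The decreased genes included the whole family of PAR bZIP activators that bind D-box elements, Tef, Hlf, and Dbp. Tef (chromosome 7, 123033971 to 123058606) was at 288 to 351 CPM (median 334) in control rats and 220.0 to 285 CPM (median 258) in withdrawal rats (log2 change -0.35 ± 0.0492 SE, limma-voom q = 0.0122), with no overlap and q = 0.000559 by DESeq2. Its q without surrogate variables was 0.111 by limma-voom and 0.121 by edgeR. Hlf was called by the model (log2 change -0.24 ± 0.0381 SE, limma-voom q = 0.0158) although its withdrawal rats spread over 98.8 to 179 CPM around control rats at 135 to 160.1 CPM (exact permutation p = 0.262). The same held for Dbp, at 65.8 to 112 and 93.8 to 104 CPM (log2 change -0.24 ± 0.0548 SE, limma-voom q = 0.0348; exact permutation p = 0.147). Per3 (chromosome 5, 168088126 to 168123482), a clock repressor, was at 55.96 to 70.2 CPM (median 63.2) in control rats and 37.1 to 56.4 CPM (median 46.4) in withdrawal rats (log2 change -0.48 ± 0.0851 SE, limma-voom q = 0.0187), and only withdrawal rats 2 and 5 reached the lowest control rat (exact permutation p = 0.00649). Per1 and Per2 did not pass, with log2 fold changes of 0.14 and -0.02. The increased members included Npas2, an activator that pairs with BMAL1 (log2 change 0.26 ± 0.0512 SE, limma-voom q = 0.0237). The other two were the repressors Cry2 (log2 change 0.20 ± 0.0498 SE, limma-voom q = 0.0471, 0.10 without withdrawal rat 6) and Bhlhe40 (log2 change 0.21 ± 0.06405 SE, limma-voom q = 0.0927, 0.14 without withdrawal rat 1 and 0.08 without withdrawal rat 6). Without withdrawal rats 4 and 5 the clock list had 3 decreased and 2 increased members. The time of day of tissue collection in each group is not given in the sources used here.

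Blood genes had the largest negative median. All 5 blood markers tested were decreased, with a median log2 fold change of -1.39. Hbb (chromosome 1, 168971269 to 168972680), a beta-globin, was at 56.7 to 101 CPM (median 85.6) in control rats and 17.7 to 64.05 CPM (median 24.6) in withdrawal rats (log2 change -1.39 ± 0.226 SE, limma-voom q = 0.0173). Withdrawal rats 2 and 5 lay at 64.05 and 59.3 CPM, within the control range, and the other 4 lay between 17.7 and 26.8 CPM (exact permutation p = 0.00649). Alas2, the heme synthesis enzyme of red cells, was likewise highest in withdrawal rats 2 and 5, at 0.394 to 1.56 CPM in withdrawal and 1.395 to 2.81 CPM in control rats (log2 change -1.45 ± 0.277 SE, limma-voom q = 0.02203). The alpha-globin genes Hba-a1, Hba-a2, and Hba-a3 are near-identical copies, so how their reads were divided is uncertain. The median of the list was -1.26 without withdrawal rat 1 and -1.06 without rat 6. All 5 stayed decreased without rat 1 and without rat 5, 1 did without rats 4 and 5, and none did without rat 6.

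Few markers of pyramidal cells were called, whereas those of granule cells held 2 decreases. Of 7 dentate granule cell markers tested 2 were decreased (median -0.11, and -0.03 without withdrawal rat 6). Withdrawal rat 5 was the lowest in both and also had the lowest granule cell marker sum, 345 CPM, and without rats 1, 5, and 6 in turn 1, 1, and 0 were decreased. C1ql2, a synaptic C1q-like protein, fell from 55.4 ± 7.25 to 36.9 ± 10.2 CPM (SD, n = 6; log2 change -0.58 ± 0.123 SE, limma-voom q = 0.0304; exact permutation p = 0.00649). Prox1, their identity transcription factor, was the other (log2 change -0.28 ± 0.06801 SE, limma-voom q = 0.0451; exact permutation p = 0.108). Of 9 CA1 markers 1 was decreased, Ccn3, a matricellular protein, at 71.7 to 100.4 CPM in controls and 57.1 to 88.2 CPM in withdrawal rats (log2 change -0.38 ± 0.102 SE, limma-voom q = 0.0614, -0.19 without withdrawal rat 6). Of 11 CA3 and CA2 markers 1 was increased (Coch, log2 change 0.34 ± 0.0931 SE, limma-voom q = 0.0682, 0.15 without withdrawal rat 5, exact permutation p = 0.385), with 1 increased and 1 decreased without withdrawal rat 1 and none called without rat 5. The general glutamatergic marker Slc17a7 was at 895 ± 121 CPM in controls and 808 ± 245 CPM in withdrawal rats, with withdrawal rat 5 at 378 CPM (log2 change -0.13 ± 0.0526 SE, limma-voom q = 0.191).

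Receptor and channel genes, through which ethanol acts, were mostly not called. None of 12 GABA-A receptor subunit genes and none of 20 ionotropic glutamate receptor genes passed limma-voom or DESeq2, with medians of -0.03 and -0.05. Grin2b, an NMDA receptor subunit, was at 519 ± 72.8 CPM in controls and 487 ± 132 CPM in withdrawal (log2 change -0.05 ± 0.0797 SE, limma-voom q = 0.753), a difference within the spread between rats. Of 34 voltage-gated potassium channel genes 1 was decreased, against 2 decreased without withdrawal rat 1 and 1 increased and 0 decreased without rat 5. Of 27 calcium and sodium channel genes 2 were decreased, the L-type channel Cacna1c (log2 change -0.16 ± 0.0419 SE, limma-voom q = 0.0614) and the sodium channel subunit Scn2b (log2 change -0.18 ± 0.0473 SE, limma-voom q = 0.0637, -0.08 without withdrawal rat 6), and neither list member was called without withdrawal rat 1, rat 5, or rat 6. Among 30 metabotropic and monoamine receptors, 2 were decreased and 1 increased (3 and 1 without withdrawal rat 1, 1 and 0 without rat 5). Adra1d, an adrenergic receptor, was among those decreased (log2 change -0.22 ± 0.0549 SE, limma-voom q = 0.0496, -0.11 without withdrawal rat 6, exact permutation p = 0.338), with 20.3 to 66.00 CPM in withdrawal and 42.9 to 74.03 CPM in controls. Htr2c, a serotonin receptor abundant in choroid plexus, was called increased (log2 change 0.27 ± 0.0654 SE, limma-voom q = 0.0459, 0.41 without withdrawal rat 4) with an exact permutation p of 0.842. Of 33 synaptic vesicle genes, Syn2 (log2 change -0.19, -0.05 without withdrawal rat 6) and Syt7 (log2 change -0.13, -0.08 without withdrawal rat 5, exact permutation p = 0.0779) were decreased, and Slc32a1, given above with the interneurons, was increased. None of these genes was called without rat 1, and in the fit without rat 5, 1 was decreased and 0 increased. Of 34 axon guidance genes, 3 were decreased (2, 2, and 0 without withdrawal rats 1, 5, and 6 in turn) and Sema3a, a repulsive ligand, was increased from 3.76 ± 0.3404 to 7.01 ± 3.22 CPM (log2 change 0.59 ± 0.146 SE, limma-voom q = 0.04598). The number increased in this list was 1, 0, and 0 without these rats in turn. Cdh9 (log2 change -0.35, -0.12 without withdrawal rat 6, exact permutation p = 0.0519) was the 1 decreased gene among 30 clustered protocadherins and synaptic adhesion genes, of which none was called without withdrawal rat 1, rat 5, or rat 6. In addition, 2 of 31 CREB, cAMP, and calcium kinase genes were increased and 1 decreased (1 and 1 without withdrawal rat 1, 3 and 0 without rat 5).

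Of 17 corticosteroid-induced genes 4 were increased (23.5%, against 4.38% of all genes), Nfkbia, Arl4d (log2 change 0.42, 0.26 without withdrawal rat 1, 0.27 without withdrawal rat 6 and 0.26 without control rat 2), Cdkn1a (log2 change 0.57, 0.31 without withdrawal rat 6, exact permutation p = 0.117), and Errfi1 (log2 change 0.37, 0.17 without withdrawal rat 6). No member was increased without withdrawal rat 1, rat 5, or rat 6, and the median of 0.17 became 0.04 without rat 6 and -0.04 without rats 4 and 5. The number decreased was 2 without rat 5 and 1 without rats 4 and 5. The decreased member was Tsc22d3, which encodes the glucocorticoid-induced leucine zipper (log2 change -0.32 ± 0.0887 SE, limma-voom q = 0.0725). Their classic members Fkbp5 and Sgk1 did not pass, with log2 fold changes of 0.06 and 0.50. Other stress and metabolism lists held few calls. Prdx6 was the only 1 of 21 NRF2 and oxidative stress genes called (log2 change -0.17 ± 0.0494 SE, limma-voom q = 0.0758). Atf4 was the only 1 of 23 endoplasmic reticulum stress genes (log2 change 0.22 ± 0.0628 SE, limma-voom q = 0.07996, 0.09 without withdrawal rat 6), and none was called without rat 1, rat 5, or rat 6. Of 19 cytosolic heat shock genes 2 were increased, with none increased without withdrawal rat 1, rat 5, or rat 6. Of 26 glycolysis and lactate genes 2 were increased, Slc2a1 (log2 change 0.21, 0.10 without withdrawal rat 6) and Pfkfb3 (log2 change 0.31 ± 0.0585 SE, limma-voom q = 0.0206, 0.17 without withdrawal rat 6), and 1, 1, and 0 were increased without rats 1, 5, and 6 in turn. Of 44 oxidative phosphorylation genes 1 was increased (none without rat 1, rat 5, or rat 6), and of 40 ubiquitin ligases and deubiquitinases 2 (1, 2, and 0 without these rats in turn). Among 29 genes of DNA methylation and histone deacetylation 3 were increased, Gadd45g, Hdac5 (log2 change 0.25, 0.14 without withdrawal rat 6), and Hdac7 (log2 change 0.18, exact permutation p = 0.102), each highest in withdrawal rat 1, and 1, 1, and 0 were increased without rats 1, 5, and 6 in turn. Gadd45g, a stress-induced gene linked to demethylation, rose from 6.57 ± 0.7097 to 10.9 ± 3.43 CPM (log2 change 0.67 ± 0.134 SE, limma-voom q = 0.0243, 0.36 without withdrawal rat 6). Among 33 autophagy and lysosome genes Ctsl was increased and Map1lc3b decreased (log2 change -0.14 ± 0.0327 SE, limma-voom q = 0.0376), with 1 increased and 0 decreased without rat 1. Oligodendrocyte precursor markers had 2 of 10 increased, Olig2 and Pdgfra (log2 change 0.15, exact permutation p = 0.506).

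**Figure D5:**
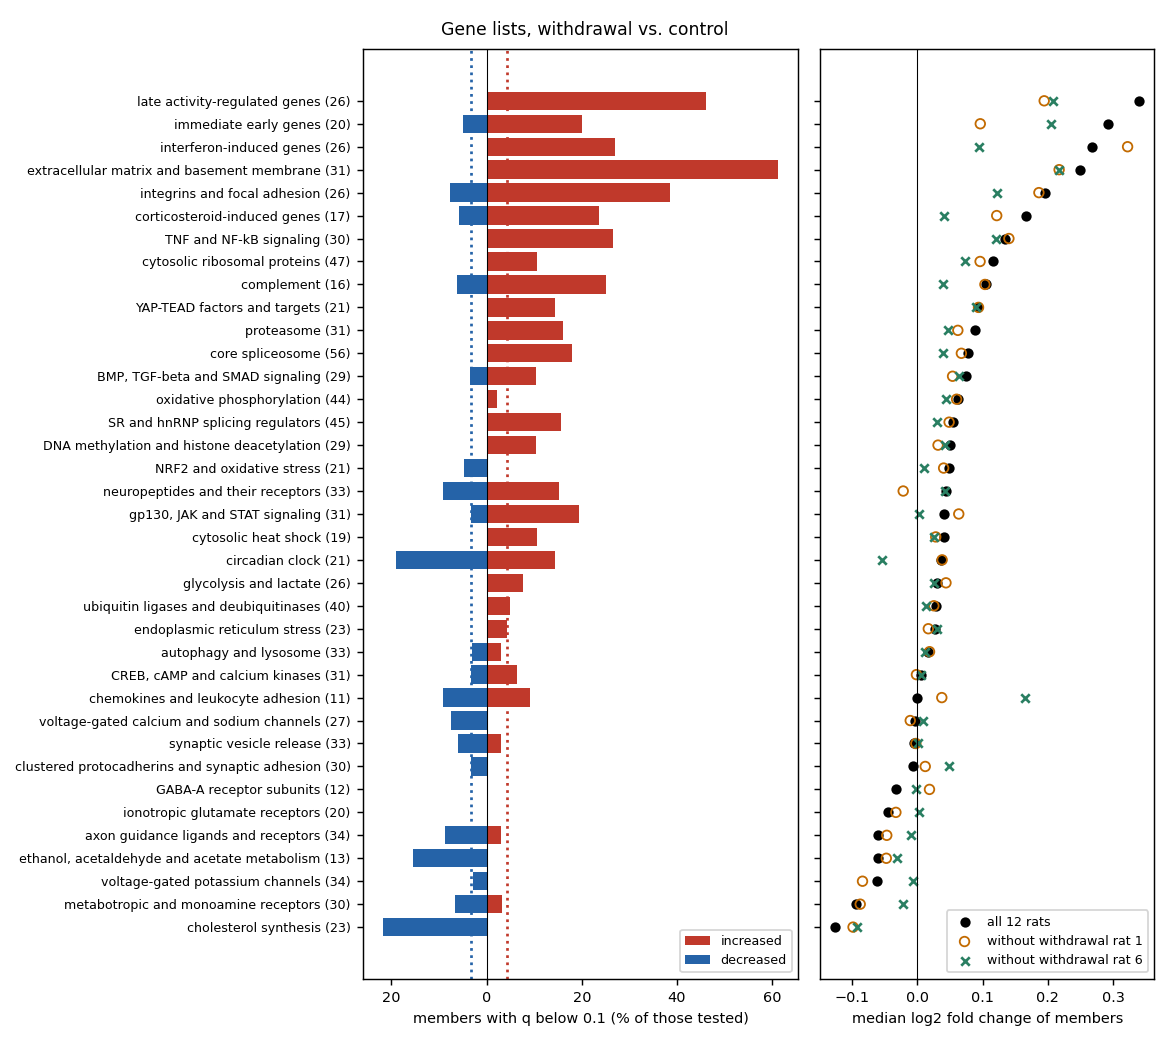
The left panel of the plot of gene lists gives the percentage of each list's tested members (number in parentheses) that were increased (red, to the right) or decreased (blue, to the left), with dotted lines at the shares of all genes, 4.38% and 3.34%. The right panel gives the median log2 fold change with all 12 rats (black), without withdrawal rat 1 (open), and without withdrawal rat 6 (cross), and shows that, among the lists drawn here, which leave out the marker lists, matrix genes had the largest share of increases, cholesterol synthesis genes had the lowest median, and many medians lay nearer to 0 without rat 6.

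The promoters of the called genes were searched for 5 short motifs, which were chosen after the fold changes had been seen, so the shares are descriptions. The windows run from 250 bases before the start of the gene to 50 after it (RefSeq, assembly GRCr8), both strands were read, and 12296 of the 16315 genes had a window. The D-box (TTANGTAA) was found in 1.31% of all windows, in 0.538% of those of increased genes (3 of 558), and in 3.73% of those of decreased genes (15 of 402). The STAT motif TTCNNNGAA was found in 6.86% of all windows, 6.99% of those of increased genes, and 6.47% of those of decreased genes. The E-box CACGTG was in 1108 of all windows (9.01%), in 67 of the 558 of increased genes, and in 38 of the 402 of decreased genes (9.45%). The cAMP response element TGACGTCA was in 2.98%, 3.23%, and 2.24%, and the TEAD motif GGAATG was in 11.5%, 15.6%, and 9.95%, of all, increased, and decreased genes. A match to such short letters is no sign of binding.

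The following windows show where these letters stand in 6 of the genes described or found by the search, each given 5′ to 3′ on the strand of its gene with the motif in capitals and ending at most at the gene start. Ccn2 is shown for its 3 TEAD motifs, Icam1 for a STAT motif, and Vgf for a cAMP response element, all increased, and Tef for an E-box, which lies in front of a decreased clock output gene. Nat8f3 and Dhdh are shown as decreased genes with a D-box.
Ccn2, chr1:22624671-22624810, minus strand: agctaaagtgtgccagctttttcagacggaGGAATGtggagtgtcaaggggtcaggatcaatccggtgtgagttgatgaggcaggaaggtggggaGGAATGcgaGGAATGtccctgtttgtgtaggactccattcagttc
Icam1, chr8:27829708-27829776, plus strand: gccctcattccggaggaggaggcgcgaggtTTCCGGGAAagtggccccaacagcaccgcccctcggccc
Vgf, chr12:25277073-25277140, minus strand: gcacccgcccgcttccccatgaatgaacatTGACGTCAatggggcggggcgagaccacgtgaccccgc
Tef, chr7:115206599-115206664, plus strand: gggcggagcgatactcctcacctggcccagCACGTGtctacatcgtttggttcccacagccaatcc
Nat8f3, chr4:119803477-119803541, minus strand: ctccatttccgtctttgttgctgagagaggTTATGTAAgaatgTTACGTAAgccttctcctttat
Dhdh, chr1:105102575-105102642, minus strand: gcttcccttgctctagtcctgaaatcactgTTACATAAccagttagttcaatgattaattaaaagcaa
In Nat8f3, an N-acetyltransferase family gene, 2 D-boxes stand close together, the first of them 35 bases before the gene start, and the gene was at 83.8 ± 12.4 CPM in controls and 45.2 ± 22.5 CPM in withdrawal rats (SD, n = 6; log2 change -1.06 ± 0.214 SE, limma-voom q = 0.0252, -0.56 without withdrawal rat 6). Dhdh, a dihydrodiol dehydrogenase, had its D-box, read on the opposite strand, 52 bases before the start and a log2 fold change of -0.23 (SE 0.0476, limma-voom q = 0.0293). Both were named for their motif after their values had been seen.

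Rats still on ethanol diet gave a further set of values, from a model of all 18 libraries in which 3.73% of the genes passed for withdrawal over ethanol and 1.23% for ethanol over control. These comparisons share rats with the one above, so their values are only set side by side. All ethanol rats carried the index set of withdrawal rats 1 and 2. Index set and ethanol over control therefore cannot be told apart, and withdrawal over ethanol is affected in part. Etv4 was at 7.23 ± 2.25 CPM in ethanol rats (SD, n = 6), with a log2 fold change of 0.87 for withdrawal over ethanol (q = 0.0388 by limma-voom) and of -0.09 for ethanol over control (q = 0.878). Tef was at 330.3 ± 37.4 CPM in ethanol rats, with values of -0.38 (q = 0.0448) and 0.03 (q = 0.909). Klhl33 was at 1.83 ± 0.398 CPM, with -0.90 (q = 0.0256) and 0.26 (q = 0.469). In these genes the ethanol mean was near the control mean. In others it was not. Hbb was at 27.4 ± 8.78 CPM in ethanol rats, with 0.09 for withdrawal over ethanol (q = 0.918) and -1.59 for ethanol over control (q = 0.0412). Capn6 was at 2.25 ± 0.714 CPM, with 0.20 (q = 0.618) and -0.82 (q = 0.0569). C3 was at 19.8 ± 3.73 CPM, with 0.13 (q = 0.746) and -0.87 (q = 0.04998). Fos was at 21.8 ± 22.96 CPM in ethanol rats, and neither of its values passed (-0.51, q = 0.529, and 1.11, q = 0.266). Nhlh1, at 4.88 ± 1.83 CPM in ethanol rats, lay between the other groups, with -1.04 (q = 0.191) and -0.94 (q = 0.1796).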

How the data were processed

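RNA-Seq libraries, 1 per rat, were paired-end and stranded. The authors aligned reads to Rnor_6.0 with STAR 2.5.2a and deposited raw counts per gene made by featureCounts 1.5.0, which counted fragments over exons of the strand opposite to read 1 (NCBI annotation). Reads that match several near-identical copies were not counted by default, so levels of such genes are uncertain. Coordinates are those of Rnor_6.0. Of 38445 gene identifiers, 29322 matched a symbol in the RefSeq table used here.

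Rats were grouped by treatment label. Counts were analysed in R 4.3.3 with edgeR 4.0.16 (TMM), sva 3.50.0 (3 surrogate variables from log2 CPM at prior count 2), and limma 3.58.1 (voom), on genes above 0.5 CPM in at least 6 of 12 libraries, with Benjamini-Hochberg adjustment and q under 0.1. DESeq2 1.42.0 was an alternative. The steps were tested on simulated data. For single genes, the mean log2 CPM of the groups was set against all 924 splits of 6 against 6 rats in an exact permutation test (two-sided), whose smallest p is 0.00216. No such p is given for genes chosen because the groups did not overlap. At 30873228 to 42679748 counts per library, counting error was small beside the spread between rats, except in genes near 1 CPM.

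Named genes were the 12 largest increases and 12 largest decreases that were called, reached a group mean of 1 CPM, and did not overlap, up to 3 called members of each list with the smallest p, the 3 smallest p in each direction at a group mean of at least 20 CPM, and the 6 genes the study measured by qPCR. Other genes in the text were chosen after their values were seen. The 54 gene lists, 16 of them marker lists, and the comparison were chosen with earlier results of these data known. A few genes and 1 list are not reported here. Promoters came from RefSeq (GRCr8). Tables and plots were made with python 3.11.15, numpy 2.4.6, pandas 2.3.3, and matplotlib 3.10.9.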

Additional observations from a re-analysis of the deposited data

Results flagged for a closer look

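For each of the 138 named genes the highest and lowest rat of each group was compared with its nearest neighbor by Dixon's ratio at its 95% critical value, and 37 of the 276 groups held a rat that stood apart. Chance alone marks about 1 in 20 groups, and genes of 1 rat are not independent of each other. In 16 groups the rat was withdrawal rat 1, always as the highest, at 3.64 CPM for Lif, 18.7 for Timp1, 11.2 for Tnfrsf12a, 58.7 for Inhba, 10.2 for Angpt2, 26.4 for Fos, 112 for Slc14a1, 13.6 for Osmr, 19.7 for Egfl7, 11.9 for Icam1, 72.8 for Smad7, 4.86 for Atf3, 98.6 for Bdnf, 170 for Pcbp1, 108 for Hnrnpll, and 177 for Hdac5. Withdrawal rat 5 was the highest for Col3a1 (151 CPM), Acta2 (73.5 CPM), Hba-a3 (2.11 CPM), and Itgb1 (147 CPM) and the lowest for Gfap (642 CPM) and Smad3 (40.7 CPM).

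The remaining marks were scattered. Withdrawal rat 6 was the lowest for Exd1 (0.364 CPM) and Ntng2 (17.5 CPM). Withdrawal rat 2 was the highest for Thrsp (20.3 CPM), nearest to the controls, and the lowest for Lsm4 (29.5 CPM), again nearest to the controls. Control rat 6 was the highest for Gng8 (19.4 CPM), Egfl7 (15.0 CPM), Lox (8.20 CPM), and Atf3 (1.02 CPM) and the lowest for Ccn3 (71.7 CPM) and Hnrnpll (63.4 CPM). Control rat 2 was the highest for Alpk3 (3.92 CPM), Ppp1r1b (91.3 CPM), and Psmc4 (73.0 CPM), control rat 5 for Egr1 (50.8 CPM), and control rat 3 was the lowest for Rpl27 (58.5 CPM). No rat was left out of the reported values for these reasons.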

How the results depend on the processing

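The number of genes that differed depended on the model of hidden variation. Against 1259 genes with 3 surrogate variables (714 increased, 545 decreased), limma-voom called 429 with 2 (230 and 199), 27 with 1 (13 and 14), and 0 with none (0 and 0, with 2014 at an unadjusted p below 0.05). Without surrogate variables, edgeR called 3 (3 and 0), DESeq2 492 (270 and 222), and limma-voom with sample quality weights 141 (72 and 69). Without a filter on low counts 635 genes were called (378 and 257), and at q < 0.05 586 (366 and 220). The counts with 4 surrogate variables, the number given by num.sv, DESeq2 size factors, upper-quartile scaling, edgeR with 3 surrogate variables, other filters, and all 18 libraries lay within 1.5 times of these.

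Leaving out 1 rat at a time gave 1 to 1895 called genes, 0 to 990 increased and 1 to 905 decreased. The count moved by more than 1.5 times without control rats 1 (817), 2 (504), or 3 (539) and without withdrawal rats 1 (666), 2 (1895), 5 (528), or 6 (1, Usp33, with 1530 at an unadjusted p below 0.05). Chosen after seeing the data, leaving out withdrawal rats 4 and 5 gave 91 genes (64 and 27), and leaving out rats 1 and 6 gave 1 (0 and 1, with 1551 at an unadjusted p below 0.05). These fits also had fewer rats, and the cause was not tested. Of the 138 named genes, 76 were also called by DESeq2 without surrogate variables, 91 without withdrawal rat 1, 83 without rat 5, and none without rat 6.

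Signs turned in 3 named genes, none of them past the threshold there. The log2 fold change of Igf2 was -0.052 without surrogate variables, that of Ttr 0.068 by edgeR and 0.063 by DESeq2 without surrogate variables and 0.321 without withdrawal rats 4 and 5, and that of Htr2c -0.015 with sample quality weights.

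Replicate numbers are shared by the groups but only number the rats. The deviations of same-numbered rats correlated at -0.405 to 0.0639, and 0 of the libraries lay closest to their own number. A fit with the replicate number as a block, without surrogate variables, called 0 genes (0 increased and 0 decreased, with 1654 at an unadjusted p below 0.05), and Igf2 was at -0.060 in it.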

Other observations

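Further genes outside the lists and the naming rule were called by the model and were chosen after their values were seen. Maff, a small Maf transcription factor, rose from 1.25 ± 0.3502 to 5.09 ± 3.93 CPM (SD, n = 6; log2 change 1.79 ± 0.353 SE, limma-voom q = 0.0236, 1.10 without withdrawal rat 6). Thbs2, a matricellular thrombospondin, went from 8.67 ± 0.555 to 20.2 ± 20.02 CPM (log2 change 1.00 ± 0.215 SE, limma-voom q = 0.0304, 0.41 without withdrawal rat 5, exact permutation p = 0.253). Cyp26b1, which degrades retinoic acid, rose from 20.05 ± 3.699 to 33.3 ± 11.6 CPM (log2 change 0.82 ± 0.151 SE, limma-voom q = 0.0198). Among genes with small p, Ncan, the brain proteoglycan neurocan, rose from 119 ± 6.61 to 151 ± 42.9 CPM (log2 change 0.31 ± 0.0398 SE, limma-voom q = 0.0122, 0.20 without withdrawal rat 1; exact permutation p = 0.104). Among decreased genes, Coq8a, a regulator of coenzyme Q synthesis, fell from 33.7 ± 1.75 to 27.5 ± 1.75 CPM (log2 change -0.29 ± 0.0477 SE, limma-voom q = 0.0173), and Fgfr4, a fibroblast growth factor receptor, from 1.64 ± 0.818 to 0.621 ± 0.366 CPM (log2 change -1.42 ± 0.272 SE, limma-voom q = 0.0219).

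Rats on ethanol diet also varied in tissue markers. Their choroid plexus markers summed to 2519 to 7775 CPM and their thalamus markers to 584 to 2662 CPM, against 649 to 1498 CPM for thalamus in control and 568 to 1091 CPM in withdrawal rats.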
